A study of Mus musculus with 24 samples.

Results

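A set of 10 genes, 9 that encode granule or abundant cytosolic proteins of neutrophils and the citrullinating enzyme gene Padi4, was followed across the 24 carotid artery libraries of the series: Padi4, Prtn3, Mpo, Elane, Ctsg, S100a8, S100a9, Ngp, Camp and Ltf. They are the 10 of 55421 listed genes whose Ensembl identifiers carry these symbols in GENCODE mouse release 21. Uninjured carotid arteries came from ovariectomized wild-type C57BL/6 female mice aged 9 weeks, 6 mice per group. The OVX group received vehicle pellets, and the other groups received 17β-estradiol (E2), estetrol (E4, a natural fetal estrogen) or tamoxifen (TAM, a ligand that blocks or activates estrogen receptors depending on the tissue). The labels give 3 weeks of treatment, the study's methods state a shorter one, and the study set the E4 pellet load apart from that of E2 to reach a like estrogenic effect on the uterus, so that E4 and E2 are compared at different doses. The 6 E4 libraries were grouped by their titles, because their treatment field reads placebo. Each library carries its own animal number. The column header of OVX C2, the lowest OVX library in S100a8, S100a9, Camp and Ltf, has a suffix that the other headers lack and whose meaning is not given. The tissue is a whole vessel, so that fewer neutrophils and less RNA per neutrophil cannot be told apart.

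Neutrophils make their granule proteins in waves during maturation in bone marrow. The primary granule proteins (myeloperoxidase and the serine proteases encoded by Elane, Prtn3 and Ctsg) are made by promyelocytes, and the secondary granule proteins (lactoferrin, the cathelicidin encoded by Camp, and the neutrophilic granule protein encoded by Ngp) by later precursors. Mature neutrophils keep high messenger RNA levels of S100a8 and S100a9, whose proteins form the cytosolic complex calprotectin, and PADI4 is the enzyme that converts arginine to citrulline in histones during the release of neutrophil extracellular traps.

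Expression is given as CPM, the count relative to the library total after TMM scaling. Calls come from edgeR's quasi-likelihood test over 25056 genes and needed a log2 fold change beyond 1 in either direction with an adjusted p below 0.05. The members were chosen by results in which Padi4 and Prtn3 already differed among the OVX, E2 and E4 libraries, so their values in contrasts with E2 or E4 are a description without p-values. The contrasts share control libraries and are given side by side. Of the 10 members, 8 passed the filter on low counts, and Mpo and Ctsg did not.

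Library totals ranged from 24647246 to 64221401 counts. The treatment check gene Stc1, induced by estrogens in the artery, had a log2 fold change of 3.88 ± 0.24 (SE) with E2, 2.13 ± 0.22 with E4 and 1.26 ± 0.22 with TAM as compared with OVX. Of the 4 check genes, 3 were called higher with E2, 2 with E4 and 1, Stc1, with TAM. Marker lists for smooth muscle (summed CPM 2336 to 8393) and endothelium (524 to 1187) were high in all 24 libraries. Markers of sympathetic ganglion, a tissue next to the carotid, summed to 51.2 CPM in OVX C5 and 260.6 in TAM C35, against 2510 to 9238 in the other libraries. T cell markers summed to 382 CPM in E2 C9, against 8.93 to 53.5 in the others.

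Prtn3 and Padi4 were the members that followed treatment. Prtn3 stood in the order OVX, TAM, E4 and E2, and only E4 and E2 overlapped, whereas Padi4 was high with E2 alone. The sequences before the RefSeq starts of both genes, and of Elane, the primary granule gene next to Prtn3, are shown because the 3 genes differed in response. The RefSeq starts of all 3 genes lie inside the genes as GENCODE draws them. That of Prtn3 lies well inside, so its stretch is not upstream of the annotated 5′ end that overlaps Plppr3. The sequences are taken from RefSeq on build GRCm38.p6 and read 5′ to 3′ on the gene's own strand. They stop short of the RefSeq start, with at most 30 bases of annotated exon at the 3′ end. Of the 250 bases searched, 247 are printed for Padi4, 227 for Prtn3 and 215 for Elane. Motif distances are counted from the RefSeq start. Capitals mark GAGGAA, the core of sites read by the myeloid factor PU.1, and TATAAA.
Padi4, chr4:140774207-140774453, minus strand: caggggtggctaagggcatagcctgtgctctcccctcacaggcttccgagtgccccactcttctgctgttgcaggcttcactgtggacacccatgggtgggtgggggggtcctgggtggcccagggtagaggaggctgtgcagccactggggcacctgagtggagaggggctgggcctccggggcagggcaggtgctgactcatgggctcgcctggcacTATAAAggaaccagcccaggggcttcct
Prtn3, chr10:79879417-79879643, plus strand: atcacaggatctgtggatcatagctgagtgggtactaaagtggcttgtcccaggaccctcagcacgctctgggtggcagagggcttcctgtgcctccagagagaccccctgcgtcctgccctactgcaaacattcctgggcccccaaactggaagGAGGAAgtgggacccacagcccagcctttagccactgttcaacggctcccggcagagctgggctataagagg
Elane, chr10:79886062-79886276, plus strand: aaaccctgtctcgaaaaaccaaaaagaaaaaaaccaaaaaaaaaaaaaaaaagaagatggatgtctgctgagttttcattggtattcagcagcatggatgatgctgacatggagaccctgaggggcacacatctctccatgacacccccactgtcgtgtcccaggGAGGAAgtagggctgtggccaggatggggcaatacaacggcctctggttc
GAGGAA was searched on both strands of the 250 bases before the start and was found 95 bases before that of Prtn3 and 85 bases before that of Elane. It was present for 6 of the 10 members and in 23.3% of all 32851 promoter windows of that length. TATAAA lay 31 bases before the start of Padi4, was present for 3 of the 10 members (also S100a8 and Ctsg), and 12.4% of all windows hold it. The palindromic core of the estrogen response element was found for 0 of the 10 members and in 0.0639% of all windows. GGTCA, a single arm of that element and so part of every match to it, was found for Mpo and Ltf and in 35.2% of all windows.

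Prtn3 (ENSMUSG00000057729; GRCm38 chromosome 10, 79874476 to 79883174, plus strand) encodes proteinase 3. In OVX mice its CPM was 0.110 at the lowest, 0.498 at the median and 0.574 at the highest. TAM libraries held 0.603, 1.35 and 1.98. E4 libraries held 3.21, 5.36 and 10.5, and E2 libraries 9.92, 10.6 and 14.4. No TAM, E4 or E2 library overlapped the OVX range, no TAM library reached the E4 range, and E4 overlapped E2 only through E4 C39. The share of all tested genes without overlap was not computed for TAM against E4 or TAM against E2. The log2 fold change relative to OVX was 4.74 (95% interval 4.07 to 5.41) with E2 and 3.81 (3.16 to 4.47) with E4. It was -0.92 (-1.47 to -0.37) for E4 against E2, below the threshold on size. Within the first series of animal numbers the fold change with E4 was 3.80, and within the second it was 3.65, where Prtn3 was not called.

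With TAM, a group not known to have entered the choice of members, Prtn3 had a log2 fold change of 1.65 ± 0.31 (SE) relative to OVX (edgeR adjusted p = 0.011), and all 6 TAM libraries lay above all 6 OVX libraries. The OVX libraries are the same as in the contrasts that chose the gene, so this test is not independent of that choice. The call was kept when any single library was left out (adjusted p 0.00516 to 0.0385). It was lost with only the 2 groups in the fit (adjusted p = 0.0752), within the first (0.0902) or second (0.773) number series, and with B cell (0.184) or erythroid (0.544) marker means as a covariate. In the same fits the calls over all genes fell from 79 to 17 with the 2 groups alone, to 1 and 0 within the first and second series, and to 6 and 3 with the B cell and erythroid covariates. The fold change ranged from 1.11 to 2.02 over those and the other alternatives. Prtn3 was lower with TAM than with E4 by 2.16 and than with E2 by 3.09 on the log2 scale.

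**Figure D1:**
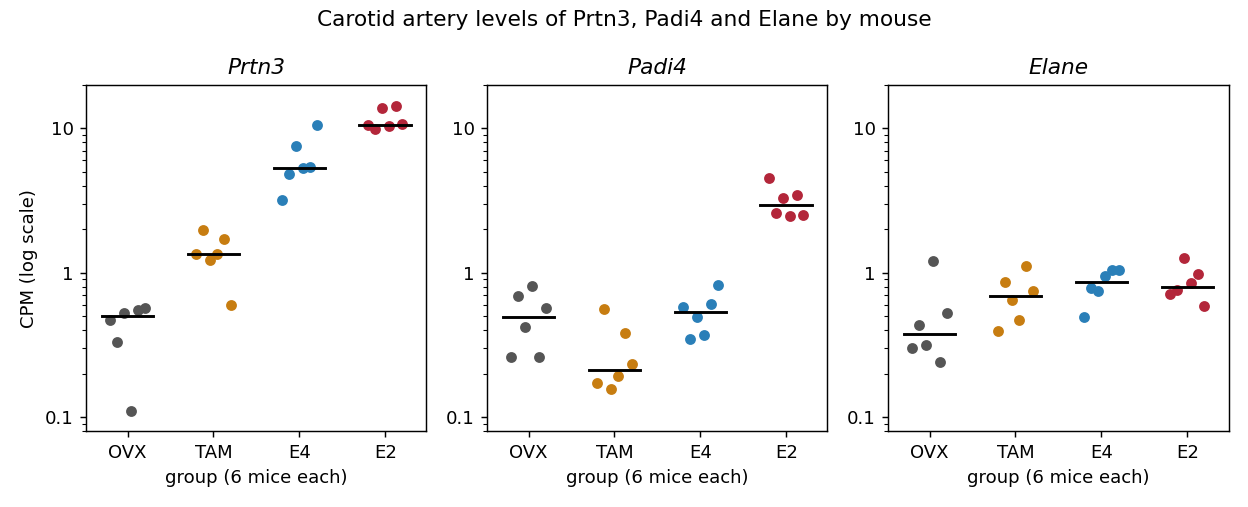
CPM (log scale) of Prtn3, Padi4 and Elane in each of the 6 mice per group, with bars at the group medians. Prtn3 steps up from OVX (median 0.498) through TAM (1.35) and E4 (5.36) to E2 (10.6), Padi4 is high in E2 alone (median 2.94), and the Elane groups overlap.

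The 5′ end of Prtn3 in the annotation shares 159 exon bases, 9.18% of its exon length, with Plppr3, a gene of the opposite strand that encodes a phospholipid phosphatase related membrane protein. The strand setting of the counting is not stated, so reads in the shared bases cannot be assigned with certainty. Plppr3 was at 8.35 to 20.8 CPM in OVX, 9.96 to 30.5 in TAM, 33.2 to 51.3 in E4 and 39.3 to 53.1 in E2. It was called higher with E2 (log2 fold change 1.37 ± 0.21, adjusted p = 0.000181) and E4 (1.25 ± 0.21, adjusted p = 0.000652), and it had 0.50 ± 0.21 with TAM (adjusted p = 0.17). The 2 genes therefore stood in the same group order, with a smaller range in Plppr3. Prtn3 CPM was 2.59% of Plppr3 CPM in the median OVX library, 5.5% with TAM, 12.9% with E4 and 24.5% with E2. The part of the shared bases in the Prtn3 values was not tested. On the other side of Prtn3, Elane begins 3072 bp away.

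The libraries lowest in Plppr3 were OVX C5 (8.35 CPM) and TAM C35 (9.96 CPM), the same that were low in ganglion markers, and each was the lowest of its group in Prtn3. In log2 CPM centred on the group means, Prtn3 followed Plppr3 over the 24 libraries with Pearson r = 0.83 and Spearman rho = 0.68, and with r = 0.64 without those 2 libraries. Its r with the ganglion list mean was 0.74, and 0.23 without them. With the ganglion list mean as a covariate the TAM contrast of Prtn3 was 1.497 (adjusted p = 0.00424). The genes most like Prtn3 in this measure were Gm17052 (r = 0.86), Mmd2 (0.85) and Gm20368 (0.83), none of them a granule gene.

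**Figure D2:**
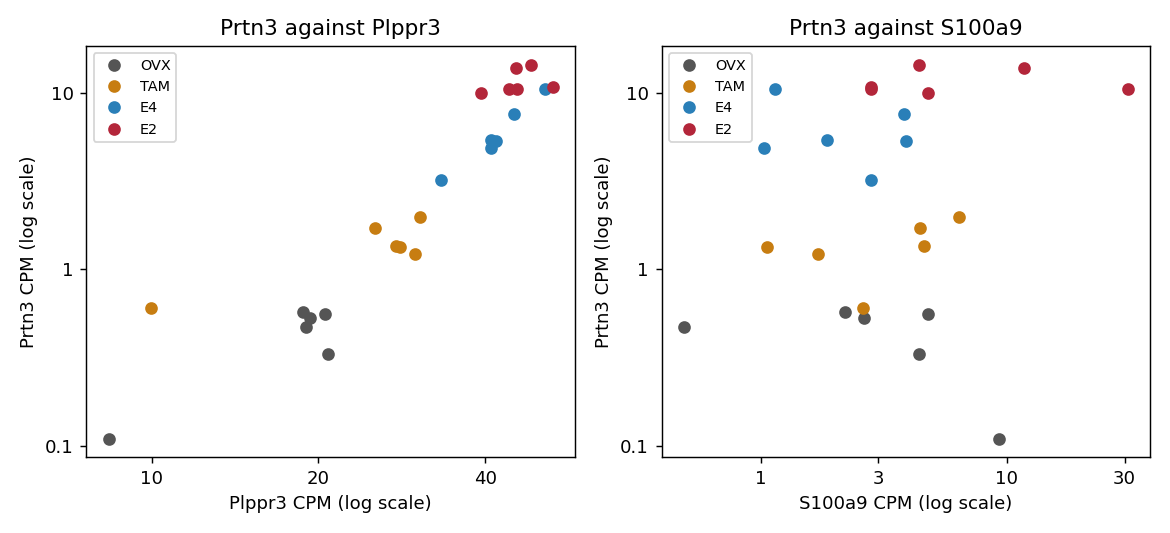
Prtn3 CPM against Plppr3 CPM (left) and S100a9 CPM (right), both on log scales, with 1 point per library coloured by group. Prtn3 and Plppr3 stand in the same order of groups, with OVX C5 lowest in both, whereas S100a9 spans overlapping ranges in all groups.

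Padi4 (ENSMUSG00000025330; GRCm38 chromosome 4, 140745865 to 140774236, minus strand) was at 0.260 CPM at the lowest, 0.498 at the median and 0.813 at the highest in OVX libraries. With E2 the values were 2.47, 2.94 and 4.53. With E4 they were 0.346, 0.534 and 0.828, and with TAM 0.157, 0.212 and 0.557. All 6 E2 libraries lay above the other 18, whose groups overlapped each other. The log2 fold change was 2.66 (2.03 to 3.29) for E2 against OVX, 0.10 (-0.56 to 0.77) for E4 against OVX, -2.56 (-3.19 to -1.92) for E4 against E2 and -3.49 (-4.16 to -2.81) for TAM against E2. For TAM against OVX it was -0.83 ± 0.33 (SE; edgeR adjusted p = 0.16). Without E2 C6 and E2 C9, the libraries highest in S100a8, S100a9, Ngp, Camp and Mpo, the log2 fold change of E2 against OVX was 2.47.

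The Padi genes lie in a cluster, and their enzymes citrullinate different substrates in different tissues. Of the other 4, Padi3, the next gene above Padi4 at 11128 bp, was called higher with E2 than in OVX (log2 fold change 2.00 ± 0.44, adjusted p = 0.00836) and lower with E4 than with E2 (-1.78 ± 0.45, adjusted p = 0.0137). Its CPM was 0.128 to 0.347 in OVX, 0.587 to 1.24 in E2, 0.0810 to 0.755 in E4 and 0.246 to 1.05 in TAM, so that E2 and OVX did not overlap. Padi2, the widely expressed member, was at 4.88 to 14.3 CPM and had an adjusted p-value under the threshold with E2 (0.68 ± 0.14, adjusted p = 0.00361), E4 (0.50 ± 0.14, adjusted p = 0.0135) and TAM (0.80 ± 0.14, adjusted p = 0.00666), each below the threshold on size. Padi1 was at 0.117 to 0.741 CPM and was called in no contrast (log2 fold changes -0.08 with E2, 0.22 with E4 and -0.08 with TAM). Padi6, 3221 bp below Padi4, had at most 2 counts in any library. Within groups, Padi4 had r = 0.29 with Padi3 and 0.41 with Padi2.

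Within groups Padi4 did not follow Prtn3 (r = -0.01), and had r = 0.63 with Elane, 0.51 with S100a8 and 0.53 with S100a9. The genes most like it were Tcf21, a mesenchymal transcription factor (r = 0.83), Calml3 (0.81) and Gm454 (0.81). Cfd, the adipocyte protease adipsin that is encoded near Elane, was the fourth (r = 0.79, and 0.70 without OVX C5 and TAM C12). Cfd was called higher with E2 (1.26 ± 0.20, adjusted p = 0.000206). Its E2 libraries (1319 to 1957 CPM) did not overlap OVX (429 to 1157). The adipocyte list, of which 1 of 9 genes, Cfd itself, was called in that contrast, had a median log2 fold change of 0.19. Within groups Padi4 had r = 0.65 with the adipocyte list mean, and 0.57 without OVX C5 and TAM C12. The part of fat tissue in the Padi4 values was not tested.

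**Figure D3:**
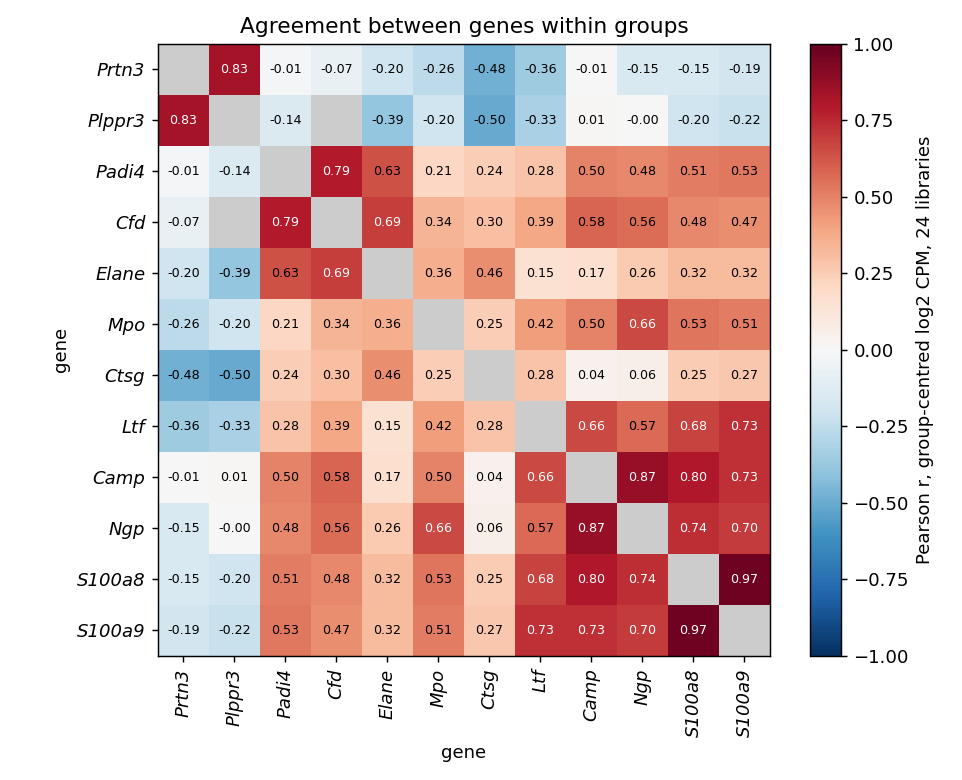
Pearson r of log2 CPM centred on group means over 24 libraries, for the 10 members, Plppr3 and Cfd (grey cells were not computed). S100a8, S100a9, Ngp, Camp and Ltf form a block of r from 0.57 to 0.97, whereas Prtn3 has r from -0.48 to -0.01 with every other member.

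Of the remaining primary granule genes, Mpo and Ctsg were near the floor of detection. Mpo (ENSMUSG00000009350), the peroxidase that makes hypochlorous acid, had fewer than 3 counts in 13 of 24 libraries. Its CPM was 0.0185 to 0.154 in OVX, 0.0247 to 0.653 in E2, 0 to 0.115 in E4 and 0 to 0.0983 in TAM. The highest value belonged to E2 C9 with 30 counts, and 5 of 6 TAM libraries listed 0 counts, which allows up to 3. Ctsg (ENSMUSG00000040314), the cathepsin G gene, had fewer than 3 counts in 9 libraries and reached 0.549 CPM in OVX C5 with 25 counts, against at most 0.168 in the other 23 libraries. Neither gene passed the filter on low counts. In the fit without that filter, Mpo was called lower with TAM than with E2 (log2 fold change -3.41, a fitted value that depends on the prior count, since most TAM libraries are at 0), and neither gene was called in the other contrasts. Within groups the genes most like Mpo were Tespa1 (r = 0.72), Arl5c (0.70) and A130071D04Rik (0.70), and those most like Ctsg were Fam167a (0.76), Gm8959 (0.74) and Gm4111 (0.72), at counts where a correlation is no finding. The antisense gene Gm11505, which shares 512 bases with Mpo, had at most 3 counts.

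Elane (ENSMUSG00000020125; GRCm38 chromosome 10, 79886247 to 79888215, plus strand), the neutrophil elastase gene, was measurable in every library. OVX libraries held 0.241 CPM at the lowest, 0.375 at the median and 1.21 at the highest. E2 libraries held 0.592, 0.800 and 1.26, E4 libraries 0.494, 0.865 and 1.05, and TAM libraries 0.396, 0.696 and 1.12. All groups overlapped, E2 with OVX only through OVX C5, since the other 5 OVX libraries reached at most 0.531 CPM. The log2 fold change was 0.78 (0.10 to 1.46) with E2, 0.75 (0.06 to 1.44) with E4 and 0.49 ± 0.33 (SE; adjusted p = 0.411) with TAM, and Elane was called in none of these. With OVX C5 alone left out it was called in the first 2, at 1.24 and 1.23. In OVX C5 Prtn3 had its lowest level of all 24 libraries, whereas Elane had its second highest. Within groups Elane was most like Pex5 (r = 0.87), Ephx2 (0.84) and Gm26714 (0.84), and it had r = -0.20 with Prtn3, or 0.36 without OVX C5 and TAM C35.

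The secondary granule genes and the S100 genes spanned wide, overlapping ranges among the mice of each group. S100a9 (ENSMUSG00000056071) was at 0.488 CPM at the lowest, 3.52 at the median and 9.30 at the highest in OVX. E2 libraries held 2.81, 4.59 and 31.1, E4 libraries 1.04, 2.33 and 3.903, and TAM libraries 1.06, 3.52 and 6.40. The upper end of E2 was E2 C6 (31.1) followed by E2 C9 (11.8), and that of OVX was OVX C5. S100a8 (ENSMUSG00000056054) held 0.338, 2.26 and 6.24 in OVX, 1.33, 3.23 and 19.1 in E2, 0.714, 1.43 and 3.03 in E4, and 0.915, 1.99 and 3.88 in TAM. The same libraries were at the top, and the ratio of S100a8 to S100a9 CPM had a median of 0.667 over the 24 libraries, with a range of 0.391 to 0.915. The 2 genes lie 22596 bp apart on opposite strands of chromosome 3 and had r = 0.97 within groups. Next to each other, S100a8 was most like Cd300a (r = 0.83) and Camp (0.80), and S100a9 was most like the neutrophil genes Retnlg (0.83) and Mmp8 (0.81).

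Ngp (ENSMUSG00000032484) was at 0.0927, 0.465 and 2.79 CPM (lowest, median and highest) in OVX, 0.173, 1.90 and 7.64 in E2, 0.0922, 0.250 and 0.961 in E4, and 0, 0.265 and 0.981 in TAM. Camp (ENSMUSG00000038357) was lower, at 0.0375, 0.241 and 0.879 in OVX, 0.0494, 0.596 and 2.94 in E2, 0, 0.108 and 0.192 in E4, and 0, 0.0729 and 0.847 in TAM. In both genes E2 C6, E2 C9 and OVX C5 were the highest libraries, and E2 C29 was the lowest of the E2 group. The groups overlapped in every contrast. Ngp and Camp had r = 0.87 with each other within groups and 0.70 to 0.80 with S100a8 and S100a9. The genes most like both, after each other, were Prkdc (r = 0.82 with Ngp) and Gm336 (0.82 with Camp).

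Ltf (ENSMUSG00000032496), the lactoferrin gene, was at 0.0750, 0.790 and 4.15 CPM in OVX, 0.222, 1.39 and 4.15 in E2, 0.161, 0.421 and 1.82 in E4, and 0.0448, 0.212 and 0.803 in TAM. OVX C5 and E2 C6 were highest here too. OVX C24, with 3.67 CPM of Ltf, held 0.0927 CPM of Ngp, and E4 C38 was the highest E4 library in Ltf and among the lowest in S100a8 and Camp. Within groups the genes most like Ltf were Bpifa1 (r = 0.84), Cyp2a5 (0.83) and Reg3g (0.81), of which Bpifa1 is a secreted product of airway epithelium. Bpifa1 was highest in E4 C38 (12.4 CPM) and OVX C24 (11.3 CPM), with a median of 0.213 over 24 libraries. Lactoferrin is made by glandular epithelium as well as by neutrophils, and the part of each in these values was not tested.

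**Figure D4:**
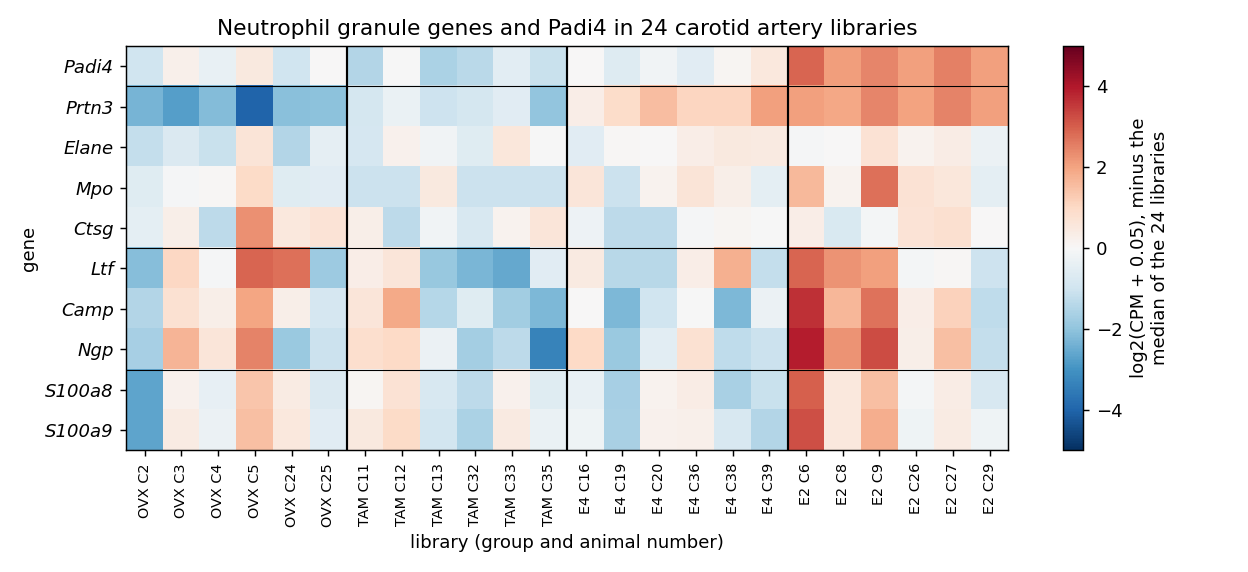
Each member (rows, by role) in each library (columns, by group), as log2(CPM + 0.05) minus the median of the 24 libraries. Prtn3 rises from OVX through TAM and E4 to E2, with E4 C39 inside the E2 range, and Padi4 is high in E2 alone. Ltf, Camp, Ngp, S100a8 and S100a9 share columns of high values in OVX C5, E2 C6 and E2 C9.

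Counted by contrast, 2 of the 8 tested members (Padi4 and Prtn3) were called with E2 against OVX, both higher, where 1.27% of all tested genes were called. The same 2 had groups that did not overlap, which held for 2.82% of all tested genes. With E4 against OVX 1 member, Prtn3, was called (background 2.51%) and did not overlap (background 9.38%). The median log2 fold change of the 8 was 1.47 with E2 and -0.66 with E4, against 0.01 and -0.01 over all genes. Without E2 C6 and E2 C9 the log2 fold change with E2 was -0.05 for S100a8, -0.09 for S100a9, 0.32 for Ngp, 0.31 for Camp and -0.75 for Ltf. Nothing is read from these counts, because the contrasts helped to choose the members. With TAM against OVX 1 of 8, Prtn3, was called, where 0.315% of genes were, and 1 of 8 did not overlap, where 2.58% did, with a median of -0.36 against 0.00. The OVX libraries of this contrast also entered the choice, so its count is a description too. The other 7 had adjusted p-values from 0.16 to 0.895 in this contrast. Ltf had the lowest fold change among them (-2.24 ± 0.91, SE; adjusted p = 0.163), with overlapping groups.

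With E4 against E2, 4 of 8 members were called lower, where 2.49% of all genes were called, and 1 (Padi4) did not overlap, where 6.16% did. Other leukocyte markers were called lower in this contrast too, 8 of 9 T cell genes (median log2 fold change -3.22) and 7 of 12 macrophage genes (median -1.08), and their part in the members' values was not tested. E2 C9 carried 382 CPM of T cell markers, whereas the other 5 E2 libraries held 11.4 to 37.6 and the E4 libraries 8.93 to 14.8. The log2 fold changes of the other 3 were -3.24 (-5.22 to -1.26) for Camp, -2.74 (-4.61 to -0.87) for Ngp and -1.98 (-3.30 to -0.66) for S100a9. S100a8 had -1.83 (-3.11 to -0.56) and Ltf -1.55 (-3.39 to 0.30) without a call. Without E2 C6 and E2 C9 the values were -1.84 for Camp, -1.41 for Ngp and -0.60 for S100a9, and Padi4 alone was called, at -2.37. Leaving out E2 C6, E2 C8 or E2 C9 alone, or E4 C19, E4 C20 or E4 C38 alone, also removed the calls of Camp, Ngp and S100a9. Over all 24 fits without 1 library, the call held in 18 for Camp, 12 for S100a9 and 8 for Ngp. The fold changes in these fits were -3.50 to -2.52 for Camp, -3.14 to -2.15 for Ngp and -2.17 to -1.12 for S100a9, the smallest in each case without E2 C6. With TAM against E2 Padi4 and Prtn3 were called lower (background 1.65%), and with TAM against E4 Prtn3 alone (background 0.2%).

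**Figure D5:**
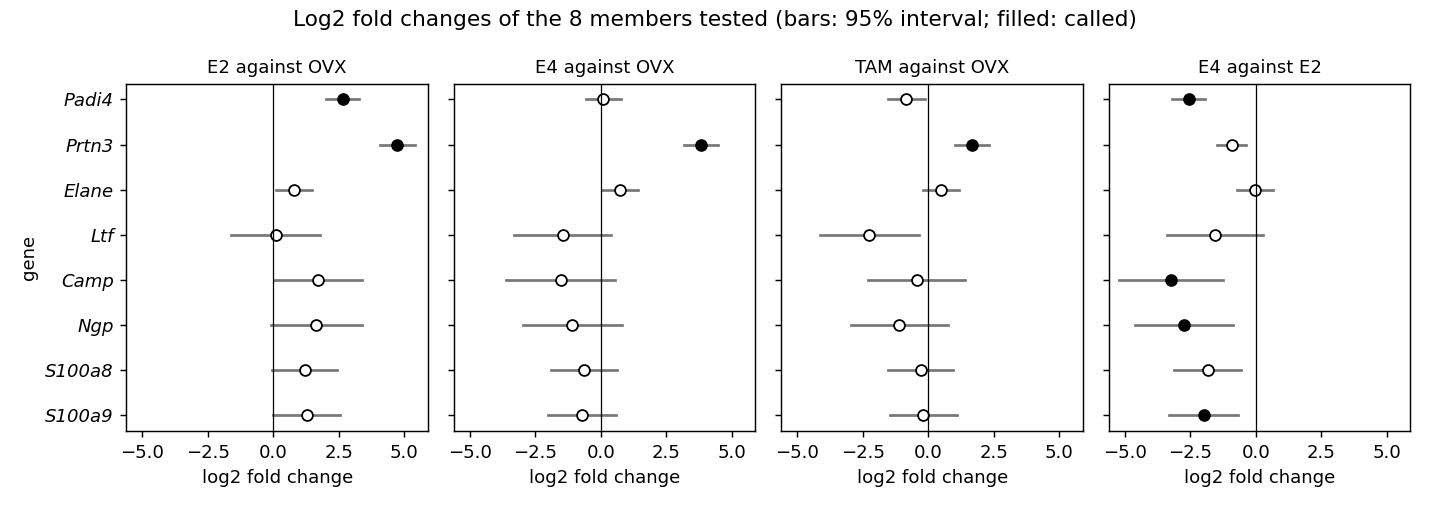
Log2 fold changes with 95% intervals of the 8 tested members in 4 contrasts (filled points were called). Prtn3 is to the right of 0 with E2, E4 and TAM, and the intervals of Ltf, Camp, Ngp and the S100 genes are wider than those of Prtn3, Padi4 and Elane.

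Per kb of exon, the median level over the 24 libraries was 6.35 CPM for S100a9, 3.38 for S100a8, 1.5 for Prtn3, 0.759 for Elane, 0.386 for Ngp, 0.249 for Camp, 0.146 for Ltf, 0.117 for Padi4, 0.0711 for Ctsg and 0.0163 for Mpo. Prtn3 moved within this order from 0.288 CPM per kb in the median OVX library to 6.14 with E2, where S100a9 was at 8.79. Elane, which neutrophil precursors make together with Prtn3, was at 0.382 in OVX and 0.813 with E2.

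The other genes of neutrophil precursors numbered 16, of which 11 were tested. With E2 against OVX 1 of 11 was called, Hp, which encodes the hemoglobin carrier haptoglobin made by liver and fat as well as neutrophils (1.52 ± 0.20, adjusted p = 2.3e-05). With E4 against E2 4 of 11 were called lower: Myb, Cebpe, Cd177 and Gfi1, with log2 fold changes of -3.81, -2.57, -2.37 and -2.21. The background for this contrast is given above, and the list had a median of -0.88 against -0.01 over all genes. Myb, a regulator of blood progenitors and thymocytes, was at 44.5 CPM in E2 C9 and at most 3.31 in the other 23 libraries, and Gfi1 was at 4.62 in E2 C9 and at most 0.843 elsewhere. This is the library with 382 CPM of T cell markers. Fcnb and Ms4a3, which define early granulocyte precursors, had fewer than 3 counts in all OVX and all TAM libraries, and Fcnb in all E4 libraries too. With TAM against E2 3 of 11 were called lower, Hp, Chil3 and Cebpe, and 0 of 11 with E4 or TAM against OVX.

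Of the 22 genes of mature neutrophils outside the members 13 were tested. With E2 against OVX 1 of 13 was called, Il1r2, the decoy receptor for interleukin 1 (1.59 ± 0.26, adjusted p = 0.000368). With E4 against OVX 3 were called lower, among them Fpr2 (-1.62) and Il1b (-1.19), which encode a formyl peptide receptor and interleukin 1β. With E4 against E2 3 were called lower, among them Il1r2 and Fpr2, with TAM against E2 1, Il1r2, and with TAM against OVX 0 of 13. Summed over the list, CPM was 37.0 to 53.2 in OVX, 38.96 to 63.7 in E2, 30.5 to 40.5 in E4 and 34.8 to 46.8 in TAM. Ly6g, the surface marker that defines mouse neutrophils, had 0 counts in the median library and at most 0.250 CPM, in E2 C6. Stfa1 and Stfa2 had fewer than 3 counts in every library. Within groups S100a9 had r = 0.88 with the mean of this list, S100a8 0.86, Padi4 0.61 and Prtn3 -0.10.

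Most genes of the erythroid list were called lower with TAM than in OVX or E2 libraries, although the summed ranges overlapped. Summed CPM of the list was 3574 to 28460 in OVX, 4408 to 20152 in E2, 3925 to 7663 in E4 and 2076 to 5191 in TAM. Of 9 erythroid genes 6 were called lower with TAM against OVX (background 0.315%) and 7 with TAM against E2 (background 1.65%). With E4 against E2 2 of 9 were called lower, and 0 of 9 with E2 against OVX, E4 against OVX or TAM against E4. Within groups S100a9 had r = 0.31, Prtn3 -0.22 and Padi4 0.16 with the erythroid list mean. Summed CPM of the macrophage list was 396 to 660 in OVX, 719 to 973 in E2, 303 to 561 in E4 and 399 to 473 in TAM, so that E2 did not overlap the other groups there, as for Padi4. Of the 12 macrophage genes 2 were called higher with E2 against OVX and 5 lower with TAM against E2. Within groups Padi4 had r = 0.39 with the macrophage list mean. With the erythroid list mean as a covariate Prtn3 had a log2 fold change of 1.45 for TAM against OVX and lost its call, and Camp, Ngp and S100a9 lost theirs for E4 against E2, in fits that also called fewer genes in all. The part of the macrophage list in the members' values was not tested.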

How the data were processed

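RNA of 24 carotid arteries was sequenced after mRNA library preparation with a stranded kit. The submitters' processing notes name bcl2fastq 2.17, Trim Galore, Bowtie2, featureCounts and the builds mm10 and GRCm38. Versions of the others and the strand setting of the counting are not given in the sources used here. The authors deposited estimated counts per gene without normalization, between 8.87% and 9.80% of them with decimals, which were rounded before testing. Members were matched by Ensembl identifier (55154 of 55421 listed genes are in GENCODE mouse release 21).

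Counts of all 24 libraries entered 1 fit of edgeR 4.0.16 (R 4.3.3) with TMM scaling and edgeR's default low-count filter, and p-values were adjusted over 25056 genes by the Benjamini-Hochberg method. DESeq2 1.42.0 was an alternative, and summaries used Python 3.11.15 with scipy 1.17.1. Standard errors were derived from the F statistic. On simulated counts for E2 against OVX (24819 genes), 97% of 200 genes changed by 2 on the log2 scale were called, and 2 unchanged ones. The changed genes were drawn only from those with a mean over 20 counts, so the 97% does not cover genes at lower counts. Totals of 24647246 to 64221401 counts limit genes near 0, 3 counts were taken as detected, and such limits cover counting error only. P-values measure the spread between libraries of separate animal numbers. Same-group libraries differed by far more than counting noise. Animal numbers fall in 2 series (up to 20 and above), which no source calls batches.

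The members and lists were chosen with earlier results of these data known. The genes named are the members, their neighbours, the Padi family, called genes of the 2 other neutrophil lists, the 3 genes most like each member and a few markers. Genes of the platelet, mast cell, epithelial, thyroid and protease inhibitor lists were tested and are summarised at the end. For 1 gene of these lists values are not reported here.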

Additional observations from a re-analysis of the deposited data

Results flagged for a closer look

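Of the 40 sets of 6 libraries (10 members in 4 groups), 8 held a library whose gap to its nearest neighbour took an unusually large share of the group's range (Dixon's 95% critical value), where chance flags about 1 in 20 for normally distributed values. CPM near 0 are skewed, and S100a8 and S100a9 name the same library, so the 8 are not independent. OVX C5 stood above the other OVX libraries in Mpo (gap 0.691 of the range), Elane (0.700) and Ctsg (0.729). E2 C6 stood above the other E2 libraries in S100a8 (0.699) and S100a9 (0.683). TAM C13 was the only TAM library with counts of Mpo, which fixes its gap at 1, and TAM C12 was apart in Camp (0.634). E4 C38 was apart in Ltf (0.667).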

How the results depend on the processing

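No paired analysis was possible because every animal number occurs once. The counts of called members were 2 for E2 against OVX, 1 for E4 against OVX, 1 for TAM against OVX, 4 for E4 against E2, 2 for TAM against E2 and 1 for TAM against E4. A minimum of 10 counts in every library gave 0, 0, 0, 2, 0 and 0, since it removes the members themselves. The second number series alone gave 0 for E4 against OVX, 0 for TAM against OVX, 0 for E4 against E2 and 0 for TAM against E4, and the first alone gave 0 for TAM against OVX and 0 for TAM against E4, with fewer libraries. Over all genes the second series called 5, 0, 0 and 17 in those contrasts and the first 1 and 1, so that these zeros say nothing particular to the members. For E4 against OVX the ganglion covariate gave 2, as did leaving out OVX C5 and TAM C35 together. Both settings also gave 3 for E2 against OVX, 5 for E4 against E2 (as did DESeq2) and 3 for TAM against E2 (as did DESeq2, the number series covariate and no filter). Over all genes these settings called 418 and 387 against 318 for E2 against OVX, and 562, 760 and 717 (DESeq2) against 623 for E4 against E2. For E4 against OVX the 2 settings called 471 and 573 against 629, and for TAM against E2 488 and 511 against 413. DESeq2, the number series covariate and no filter called 459, 402 and 387 for TAM against E2. For TAM against OVX the count was 0 with the 2 groups alone and with the B cell or erythroid covariate. For E4 against E2 it was 2 without a filter, with OVX, E2 and E4 libraries only, with the number series covariate (Padi4 and Camp in these) or the B cell covariate (Padi4 and Prtn3), and 1 with the erythroid covariate or without E2 C6 and E2 C9, which was chosen after seeing the data; the cause was not tested. Over all genes the calls in this contrast fell from 623 to 306 with the B cell covariate, 219 with the erythroid covariate and 264 without E2 C6 and E2 C9, and were 557 to 589 in the other settings named. Leaving out 1 library gave 2 to 3, 1 to 2 (2 without OVX C5), 1 to 1, 1 to 5, 2 to 3 and 1 to 1 in the order above. No called fold change reversed its sign in any of these alternatives. CPM on unscaled totals moved none of the 40 group medians of members by more than the SD between mice. Of 45 coefficients between members, 11 moved by over 0.2 or changed sign without the 2 farthest libraries. Genes near 0, Mpo and Ctsg above all, are limited by depth.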

Other observations

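The remaining lists gave the following values. The granule protease inhibitors and processing enzymes, which include the elastase inhibitor Serpinb1a, had 1 of 6 tested genes called, Serpinb1a with E4 against E2 (-1.03 ± 0.20, adjusted p = 0.00244). Of 11 mast cell genes 3 were called lower with E4 against OVX. Of 10 tested platelet genes 1 was called lower with E4 against OVX, 3 with E4 against E2 and 1 with TAM against E2. Of 10 B cell genes 8 were called lower with E4 against OVX and 2 with TAM against OVX. Of 5 tested epithelial genes 2 were called higher with E4 against OVX and 1 with E4 against E2. Thyroid markers summed to 3025 CPM in E4 C38, the E4 library highest in Ltf, and to 134.6 CPM or less in the others.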
